A study of Homo sapiens with 6 samples.

Results

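The 10 genes described here encode parts of the machinery by which a cell takes up protein from its surroundings: the caveolins CAV1, CAV2 and CAV3, the clathrin heavy chain CLTC with the light chains CLTA and CLTB, the dynamins DNM1, DNM2 and DNM3, and EHBP1, the EH domain binding protein 1. Accessible chromatin regions were taken as members where the deposited tables name 1 of these genes for the region, at any distance from the gene start, with each region counted once. This gave 178 regions of the 226920 in the tables, and 10 genes of the 19059 gene names. Each of the 178 regions was 501 bases long, so their signals can be compared with no correction for length, and 129 overlapped the span of the gene they are named for. The gene name says which gene start a region was assigned to. It does not say that the region acts on that gene.

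Chromatin accessibility was measured with ATAC-seq, in which the Tn5 transposase cuts and tags open chromatin, in A375, an established human melanoma cell line. The 6 libraries formed 3 groups of 2: cells labelled both mock and untreated, cells given recombinant HMGA1 protein (reHMGA1) for 2 h, and cells exposed to the same protein for 18 h. HMGA1 is a chromatin protein that binds AT-rich DNA through its AT hooks. The amount of protein, and whether the mock cells were given its carrier, are not given in the sources used here, and mock cells have no time in the labels, so that time in culture cannot be told apart from treatment. All groups come from 1 cell line, and cells of all groups were frozen after treatment and thawed for library preparation. The labels describe each pair of libraries as biological replicates but name no separate cultures. The p-values therefore rest on the spread within these pairs, which may be technical.

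Caveolae are small invaginations of the plasma membrane that are shaped by caveolin oligomers together with the cavins. CAV1 is their main structural protein outside muscle, CAV2 forms hetero-oligomers with it, and CAV3 is the muscle form. In the clathrin route, heavy chains and light chains assemble into the lattice around a budding pit, CLTC carries the lattice and CLTA and CLTB line it. Dynamins are GTPases that wrap the neck of a pit and cut the vesicle free: DNM2 is made in most tissues, DNM1 and DNM3 mostly in neurons and a few other cells. EHBP1 links EH domain proteins and Rab proteins of the endocytic recycling route to actin.

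The values available are those of the authors' DESeq2 comparisons: a mean signal for each region over the 6 libraries, in normalised reads, and a log2 fold change with its standard error (SE) for each pair of groups. The tables hold no value for a single library, so library depth is unknown and no spread among the libraries of a group can be given beyond the SE. A level in each group, called the implied level below, was worked out from the mean signal and both fold changes against mock, taking the mean as that of equal groups. The word called is used for an adjusted p under 0.05 in the authors' table. Regions with a mean signal below a limit that differed between the comparisons (56.2, 101 and 41.7 normalised reads) carry an adjusted p of exactly 1 and count as not tested. Of the 178 regions, 72 were tested in at least 1 comparison, 38 in all 3 and 106 in none.

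Melanocyte lineage markers were used to check the cell type. Regions overlapped the starts of SOX10, MITF, PAX3 and PMEL, with mean signals of 63.8, 694, 302 and 298 normalised reads. No region lay at the starts of TFAP2A, MLANA, TYR and DCT, the nearest being 4333, 4229, 8672 and 2225 bases away. Of the markers of other cell types, keratin 5 (KRT5) had a region of signal 69.4 at 439 bases and KRT14 1 of signal 26.9 at 809 bases, and none of the other 7 had a region within 1 kb of its start. Because a bulk library averages over cells, a change in a share of the cells and a change in every cell cannot be told apart.

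The sequence around 5 of the gene starts is shown first, because the start regions differ widely in signal and the sequences around the starts in how AT-rich they are. Each window runs from 250 bases before to 50 bases after the first base of the gene as annotated by RefSeq (GRCh38.p14), is printed 5′ to 3′ on the gene's strand, and has in capitals the bases that lie inside a deposited accessible region.
CAV1 (chr7:116524759-116525058, plus strand): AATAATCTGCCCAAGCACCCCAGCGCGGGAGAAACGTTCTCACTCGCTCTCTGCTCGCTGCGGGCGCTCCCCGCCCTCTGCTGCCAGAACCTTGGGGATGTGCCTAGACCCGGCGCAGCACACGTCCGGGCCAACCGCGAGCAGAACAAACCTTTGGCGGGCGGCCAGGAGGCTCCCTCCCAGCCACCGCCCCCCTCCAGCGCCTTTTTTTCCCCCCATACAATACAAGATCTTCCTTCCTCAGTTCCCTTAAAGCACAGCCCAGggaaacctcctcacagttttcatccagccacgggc
CAV2 (chr7:116499488-116499787, plus strand): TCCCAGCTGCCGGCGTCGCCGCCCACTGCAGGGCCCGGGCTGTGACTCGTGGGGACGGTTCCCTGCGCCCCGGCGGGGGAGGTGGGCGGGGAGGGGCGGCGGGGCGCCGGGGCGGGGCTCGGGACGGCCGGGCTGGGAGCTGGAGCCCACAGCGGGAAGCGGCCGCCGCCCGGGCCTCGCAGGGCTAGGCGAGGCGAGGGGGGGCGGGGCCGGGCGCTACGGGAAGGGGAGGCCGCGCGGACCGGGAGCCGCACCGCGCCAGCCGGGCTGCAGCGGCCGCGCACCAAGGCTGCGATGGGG
CAV3 (chr3:8733552-8733851, plus strand): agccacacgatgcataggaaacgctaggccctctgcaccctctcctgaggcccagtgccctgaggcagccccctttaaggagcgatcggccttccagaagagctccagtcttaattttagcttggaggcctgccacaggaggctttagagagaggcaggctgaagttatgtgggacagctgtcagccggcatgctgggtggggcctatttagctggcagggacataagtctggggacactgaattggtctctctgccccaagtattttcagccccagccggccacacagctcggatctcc
DNM2 (chr19:10717829-10718128, plus strand): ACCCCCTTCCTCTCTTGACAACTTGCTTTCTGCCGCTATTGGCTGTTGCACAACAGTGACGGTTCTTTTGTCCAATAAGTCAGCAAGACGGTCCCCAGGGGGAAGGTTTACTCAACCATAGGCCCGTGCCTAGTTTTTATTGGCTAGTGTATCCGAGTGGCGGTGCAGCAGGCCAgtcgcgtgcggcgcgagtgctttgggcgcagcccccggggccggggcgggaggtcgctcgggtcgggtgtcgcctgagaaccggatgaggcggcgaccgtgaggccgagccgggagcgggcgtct
EHBP1 (chr2:62673628-62673927, plus strand): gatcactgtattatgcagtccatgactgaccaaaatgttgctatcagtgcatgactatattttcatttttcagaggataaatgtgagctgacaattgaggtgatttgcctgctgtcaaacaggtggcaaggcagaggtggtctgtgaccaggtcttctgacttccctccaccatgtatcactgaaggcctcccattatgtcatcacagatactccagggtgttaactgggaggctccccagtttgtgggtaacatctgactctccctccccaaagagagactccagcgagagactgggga

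The CAV2 window lay wholly inside its region and held 17.3% A and T. Only 0.812% of the 35116 RefSeq promoter windows of this length held less, the median being 41.3%. In the CAV1 window, 265 of 300 bases were inside the region and 37.7% were A or T, and in the DNM2 window 175 bases were inside and 37% were A or T. The CAV3 and EHBP1 windows had no base inside a region, with 42% and 52% A and T. The SP1 motif GGGCGG, searched on both strands as were all motifs, occurred 6 times in the CAV2 window, 3 times in the CAV1 window and once in the DNM2 window, and 45.0% of all windows hold it. The NF-Y motif CCAAT occurred 3 times in the DNM2 window and once in the CAV3 window (34.6% of all windows hold it). Runs of 6 or more A or T occurred 4 times in the EHBP1 window and not in the CAV2 window (61.2% of all windows). Across all 17 RefSeq windows of the 10 genes, none held the AP-1 motif TGANTCA or the TATA box TATAAA, which 7.71% and 11.5% of all windows hold. The CRE letters TGACGTCA occurred in 2 windows, both of CLTB and overlapping each other, against 1.85% of all windows, and the TEAD letters GGAATG in the same 2, against 14% of them. These matches are descriptions of the letters only.

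Across the members, 9 calls were made on 8 regions, and most of them separated 18 h from 2 h. At 2 h against mock, 1 of 57 tested member regions was higher, a distal CAV2 region, and 1 was lower, a region inside DNM1. Over all regions tested in this comparison, 0.856% were called higher and 0.421% lower. At 18 h against mock, 38 member regions were tested, none was called higher by DESeq2 and 1, upstream of CAV3, was called lower, beside 0.00542% and 0.116% of all tested regions. At 18 h against 2 h, 72 were tested, none was higher and 6 were lower, beside 0.498% and 2.98% of all tested regions. The 6 lower regions were 2 named for CAV2 and 1 each for CAV3, CLTB, DNM3 and EHBP1. Among the tested members, the count of higher ones at an unadjusted p under 0.05 was also 0 in both comparisons where none was called. Over all tested regions, that count was 315 of 55341 at 18 h against mock and 3722 of 108134 at 18 h against 2 h. No call was made on a region named for CAV1, CLTC, CLTA or DNM2. Of their regions, 13, 2, 3 and 10 were tested at 18 h against 2 h, and no more than that in the other comparisons. The 6 lower calls are 8.33% of the member regions tested at 18 h against 2 h. No test of the list was made.

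**Figure D1:**
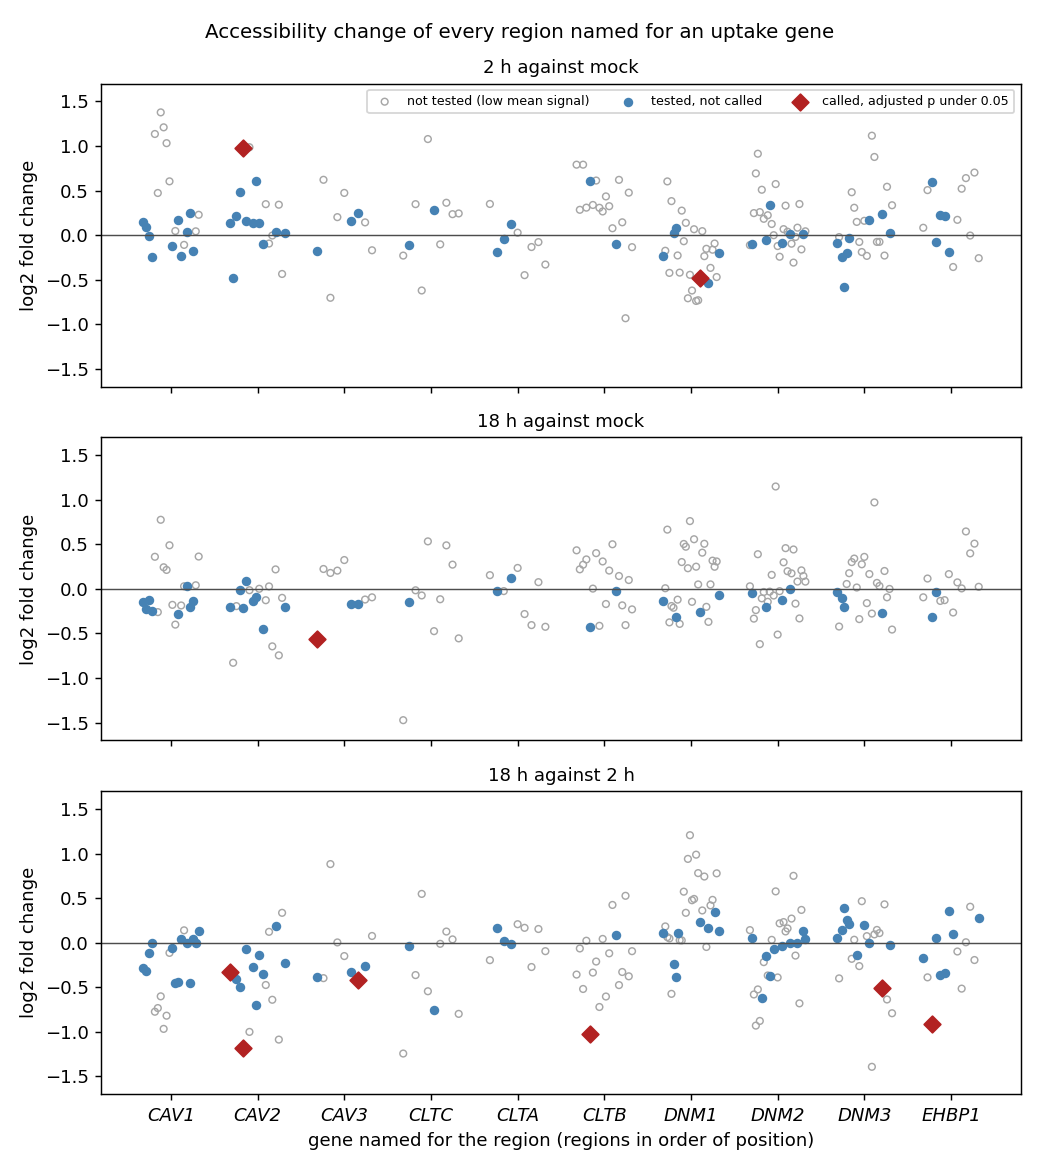
Each point is 1 of the 178 regions, placed by its gene and in order of position on the horizontal axis, with its log2 fold change on the vertical axis, 1 panel per comparison. Open points were not tested for low mean signal, filled circles were tested and diamonds were called, of which 6 lie below 0 at 18 h against 2 h.

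The median log2 fold change of the tested members was 0.02 at 2 h against mock, -0.14 at 18 h against mock and -0.05 at 18 h against 2 h. Over all tested regions it was -0.06, -0.07 and 0.01. Of the 38 members tested at 18 h against mock, 34 (89.5%) lay below 0, and 69.5% of all tested regions did. Regions of 1 gene are neighbours on 1 stretch of chromatin and are not independent, and the comparisons share libraries, so these medians are given as a description.

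The caveolin genes carried 4 of the 8 called regions, and they also held a large share of the members tested. Theirs were 25 of the 57 tested at 2 h against mock and 19 of the 38 at 18 h against mock. At 18 h against 2 h, they were 29 of the 72. CAV2 has 18 regions, of which 17 lie upstream of its start, up to 144 kb away, and only 1 overlaps the gene. Among the tested member regions, the one with the largest change was chr7:116399762-116400263, 99.1 kb upstream of CAV2. It lies in the stretch between TES, 141 kb away, and CAV2, and it overlaps no annotated gene. Here the implied level was 87.8 normalised reads in mock cells, 173 at 2 h and 76.0 at 18 h, so that the 2 h level stood apart and the other two lay close together. In the authors' deposited table it rose 1.97-fold at 2 h, a log2 fold change of 0.98 ± 0.23 (SE, 2 libraries a group; DESeq2 adjusted p = 0.00469), and fell 2.28-fold from 2 h to 18 h (-1.19 ± 0.23, adjusted p = 6.39e-05). Its deposited log2 fold change at 18 h against mock was -0.21 ± 0.24 with an adjusted p of 0.949, and the 95% interval ran from -0.69 to 0.27. It is the only member region called in 2 comparisons, and both use the 2 h libraries, so the calls are not independent.

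The other called CAV2 region, chr7:116354909-116355410, lies 144 kb upstream of CAV2 and 96.1 kb from TES, and has the highest mean signal of any region named for CAV2, 898 normalised reads. For it, the implied level was 909 normalised reads in mock cells, 995 at 2 h and 792 at 18 h. The deposited 18 h against 2 h value was -0.33 ± 0.09, a 1.26-fold fall (adjusted p = 0.011), while the changes against mock were 0.13 ± 0.09 at 2 h (adjusted p = 0.696) and -0.20 ± 0.09 at 18 h (adjusted p = 0.53). A region 64.2 kb upstream missed the threshold, with -0.70 ± 0.24 at 18 h against 2 h (adjusted p = 0.0781) and 0.61 ± 0.24 at 2 h against mock (adjusted p = 0.24) in the deposited table. Another 104 kb upstream, 3.97 kb from the tested region with the largest change, had levels of 161, 226 and 160.0 normalised reads in mock, 2 h and 18 h cells, and its deposited change from 2 h to 18 h was -0.50 ± 0.18 (adjusted p = 0.117). Of the 12 CAV2 regions tested at 18 h against 2 h, 11 lay below 0, with a median of -0.34. The CAV2 start region itself (signal 385), which also overlaps the divergent transcript CAV2-DT, had changes of 0.02 ± 0.12 at 2 h and -0.20 ± 0.12 at 18 h against mock, with 95% intervals of -0.22 to 0.26 and -0.44 to 0.04. Its change from 2 h to 18 h was -0.22 ± 0.12 (95% interval -0.47 to 0.02), and it was not called.

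**Figure D2:**
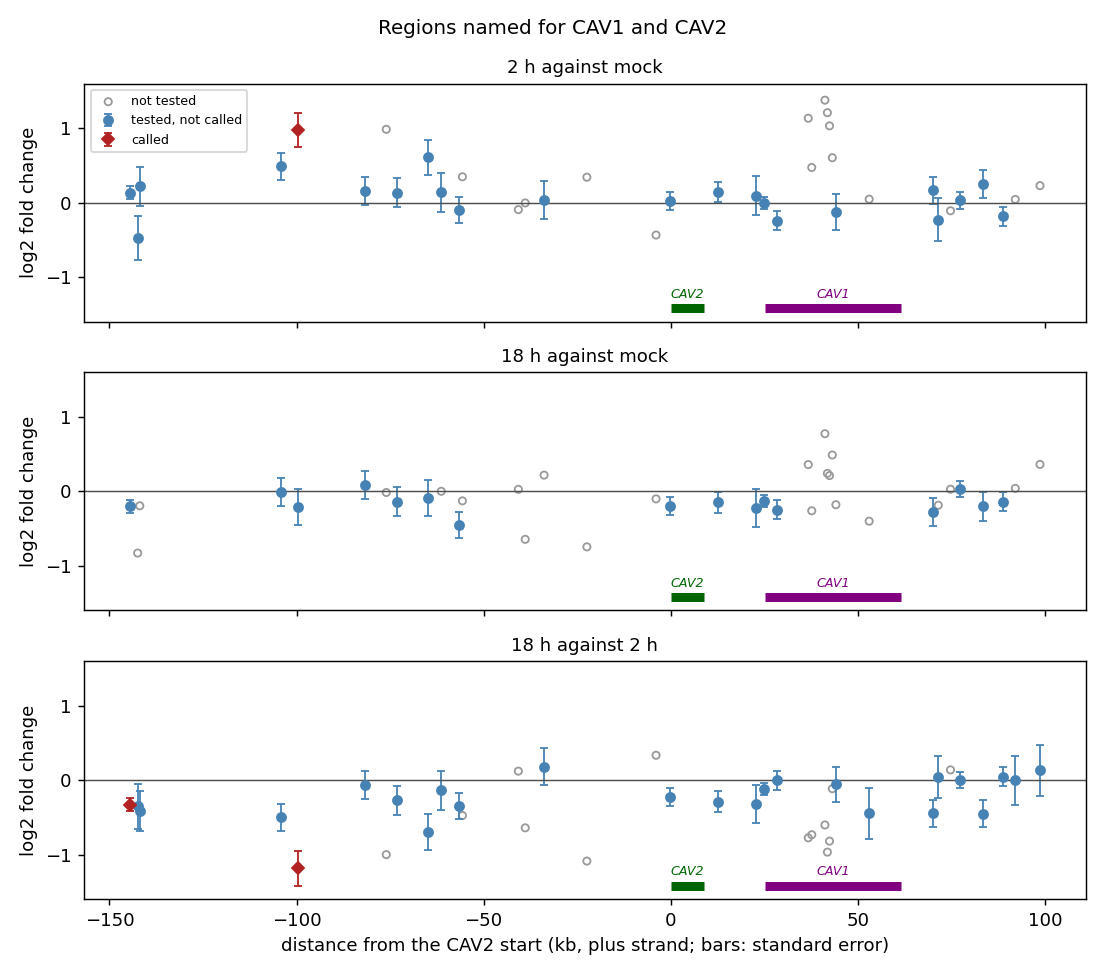
Log2 fold change (vertical axis) of each region named for CAV1 or CAV2 against its distance from the CAV2 start in kb (horizontal axis, plus strand), 1 panel per comparison, with the gene spans as bars and the deposited SE as error bars on tested regions. The called regions lie far upstream of CAV2. Neither gene start region was called, and at 18 h against 2 h the CAV2 one had -0.22 ± 0.12 and the CAV1 one -0.12 ± 0.08.

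CAV1 starts 16.5 kb past the end of CAV2 on the same strand. Of its 20 regions, 10 were tested at 2 h against mock, 8 at 18 h against mock and 13 at 18 h against 2 h, and none was called. The CAV1 start region had a mean signal of 953 normalised reads, and the implied level was 983 normalised reads in mock cells, 977 at 2 h and 899 at 18 h, a narrow range. The deposited log2 fold change there was -0.01 ± 0.08 at 2 h (95% interval -0.17 to 0.15) and -0.13 ± 0.08 at 18 h (95% interval -0.29 to 0.04). A region 3003 bases into the gene had -0.24 ± 0.12 at 2 h (adjusted p = 0.496) and -0.24 ± 0.12 at 18 h (adjusted p = 0.626), and 0.00 ± 0.12 between the times. Past the gene's end, a region 44.6 kb from the start, inside the RNA gene COMETT, had the smallest adjusted p of the CAV1 regions at 18 h against 2 h, 0.219, with -0.44 ± 0.18 in the deposited table.

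CAV3 has 9 regions, and 2 of the 4 tested ones were called. The region chr3:8712512-8713013, 20.8 kb upstream between SSUH2 and CAV3 and in no annotated gene, was the 1 member called at 18 h against mock. There the implied level was 398 normalised reads in mock cells, 352 at 2 h and 269.8 at 18 h. The deposited change at 18 h was -0.56 ± 0.13, a 1.47-fold fall (adjusted p = 0.0331), beside -0.18 ± 0.13 at 2 h (adjusted p = 0.743). This call ended when fold changes were centred on their median or within bins of mean signal (log2 fold changes of -0.49 and -0.48), and when the limit on mean signal was dropped.

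The second CAV3 region, chr3:8741408-8741909, lies 7.61 kb downstream of the start, inside the spans of both CAV3 and OXTR, the oxytocin receptor gene. It had the highest mean signal of the CAV3 regions, 699.7 normalised reads, and the implied level was 681 normalised reads in mock cells, 812 at 2 h and 606 at 18 h. It fell 1.34-fold from 2 h to 18 h in the authors' deposited table (-0.42 ± 0.10, adjusted p = 0.00125), with 0.25 ± 0.10 at 2 h (adjusted p = 0.223) and -0.17 ± 0.10 at 18 h against mock (adjusted p = 0.728). The region nearest the CAV3 start, 197 bases away, had a mean signal of only 24.4 normalised reads and was not tested, with 0.47 ± 0.49 at 2 h. CAV3 thus had more open chromatin 7.61 kb into its span than at its start, in a stretch that it shares with OXTR.

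Over the caveolin genes as a group, 23 of the 29 regions tested at 18 h against 2 h lay below 0, with a median log2 fold change of -0.29, and 3 were called lower. Of all regions tested there, 48.1% lay below 0 and 2.98% were called lower. At 2 h against mock 17 of 25 tested caveolin regions lay above 0 (median 0.13, 1 called higher), beside 37.8% of all tested regions above 0 and 0.856% called higher. For 18 h against mock, 17 of 19 lay below 0 (median -0.17, 1 called lower), beside 69.5% of all tested regions below 0 and 0.116% called lower. The dynamin genes had medians of -0.07, -0.13 and 0.04 at 2 h against mock, 18 h against mock and 18 h against 2 h, and the clathrin genes -0.05, -0.02 and -0.01. Whether the families differ was not tested, since their regions are not replicates.

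**Figure D3:**
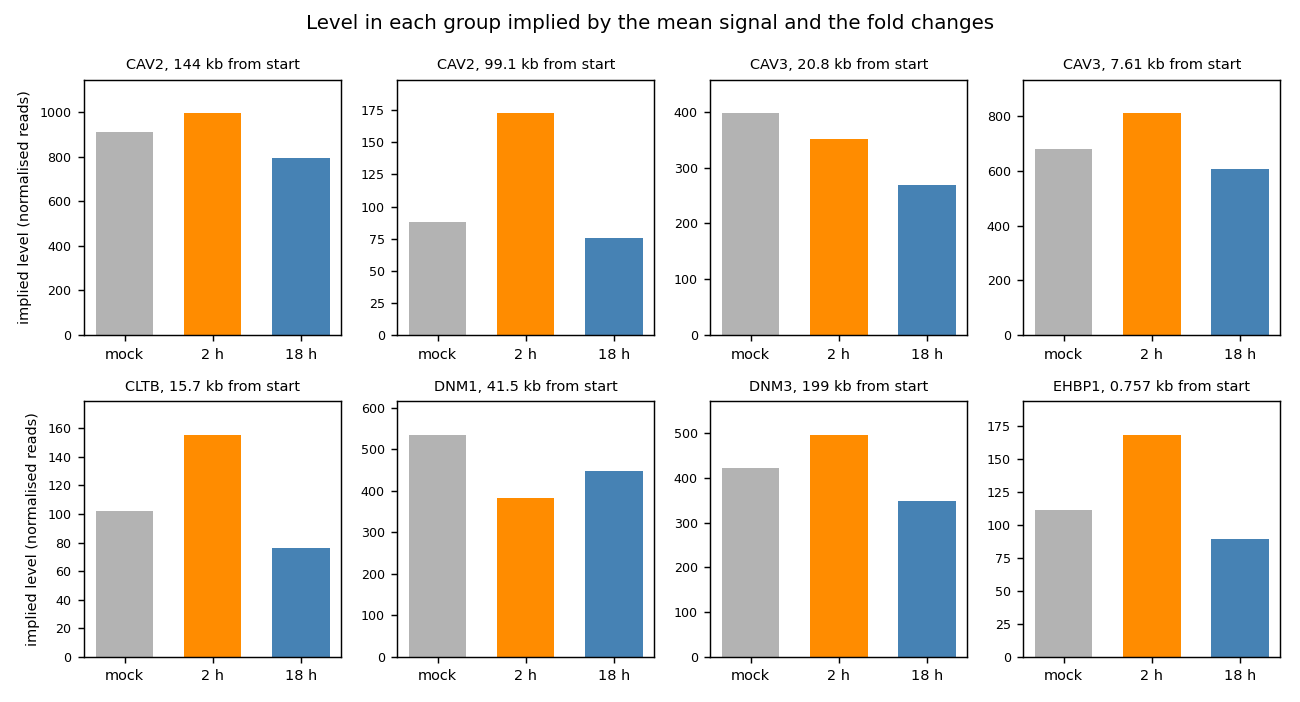
Bars show the level in normalised reads (vertical axis, from 0) that the mean signal and the fold changes imply for mock, 2 h and 18 h cells in each of the 8 called regions. The levels carry no error bars because the tables hold no value per library; the SE of each fold change is in the text. The CAV2 region 99.1 kb from its start goes from 87.8 to 173 and 76.0.

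Among the clathrin genes, only CLTB had a called region, and it was far from the gene's start. Of the 37 clathrin regions, just 7 were tested at 2 h against mock, 5 at 18 h against mock and 7 at 18 h against 2 h. In the last comparison 2.98% of all tested regions were called lower. The region chr5:176400366-176400867 lies 15.7 kb downstream of the CLTB start, in the spans of CLTB and of ARL10, a gene of the ARF-like GTPase family, and the implied level was 102 normalised reads in mock cells, 155 at 2 h and 76.1 at 18 h. The fall from 2 h to 18 h was 2.04-fold in the authors' deposited table (-1.03 ± 0.23, adjusted p = 0.000842). Against mock it had 0.61 ± 0.22 at 2 h (adjusted p = 0.2002) and -0.42 ± 0.24 at 18 h (adjusted p = 0.704). Only 2 of the 18 CLTB regions were tested in each comparison, the other being the start region.

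The clathrin start regions had high signal and small fold changes. The CLTA start region had a mean signal of 1109 normalised reads and a deposited log2 fold change of -0.19 ± 0.08 at 2 h (DESeq2 unadjusted p = 0.0248, adjusted p = 0.374). Its 95% interval at 2 h, -0.35 to -0.02, lay below 0, and its change at 18 h against mock was -0.02 ± 0.08. For CLTC, which makes the heavy chain, the region 198 bases upstream of the start had a signal of 621, and -0.11 ± 0.10 at 2 h and -0.14 ± 0.10 at 18 h, with 95% intervals of -0.31 to 0.09 and -0.34 to 0.05. The CLTB start region (signal 525) had -0.10 ± 0.11 and -0.02 ± 0.11. From 2 h to 18 h, these regions of CLTA, CLTC and CLTB had 0.16 ± 0.08, -0.04 ± 0.10 and 0.08 ± 0.11. None of these was called. A region inside CLTC, 48.9 kb downstream, lay just outside the threshold at 18 h against 2 h: the implied level was 95.1 normalised reads in mock cells, 115 at 2 h and 68.4 at 18 h, a deposited change of -0.75 ± 0.25 with an adjusted p of 0.0592.

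The dynamin genes held 80 of the 178 regions, many of low signal. DNM1 had the 1 member region that was lower at 2 h than in mock cells, chr9:128244865-128245366, 41.5 kb downstream of the start and inside the gene. It was the region with the highest mean signal of those named for DNM1, 456 normalised reads, and the implied level was 535 normalised reads in mock cells, 383 at 2 h and 449 at 18 h, with 18 h between the other two. The deposited change at 2 h was -0.48 ± 0.12, a 1.40-fold fall (adjusted p = 0.00667). The 18 h value against mock was -0.25 ± 0.11 (adjusted p = 0.524), and from 2 h to 18 h 0.23 ± 0.12 (adjusted p = 0.436). Centring within bins of mean signal moved the 2 h value to -0.39 and ended the call.

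This region contains the whole hairpin of the microRNA gene MIR3154 (chr9:128244947-128245030, minus strand), and the hairpin of MIR199B (chr9:128244721-128244830, minus strand) ends 35 bases before the region begins. Both are transcribed against the direction of DNM1. Their sequences are shown because the hairpin is the part of the called region whose sequence is at hand, with the seed (bases 2 to 8) of each mature microRNA in capitals. The sequences are from RefSeq on GRCh38.p14.
MIR3154 hairpin: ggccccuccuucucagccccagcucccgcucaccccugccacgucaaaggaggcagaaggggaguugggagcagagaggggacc
miR-3154: cAGAAGGGgaguugggagcaga
miR-199b-3p: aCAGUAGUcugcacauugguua
miR-199a-3p: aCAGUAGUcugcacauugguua
miR-199a-5p: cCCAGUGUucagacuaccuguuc

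The mature miR-199b-3p and miR-199a-3p have the same 22 bases, and so the same seed, which miR-3154 and miR-199a-5p do not share. MIR199 genes lie within all 3 dynamin genes on the opposite strand. In DNM2, the hairpin of MIR199A1 (chr19:10817426-10817496) lies inside the region chr19:10817233-10817734, which had a mean signal of 19.5 normalised reads and was not tested, with a deposited log2 fold change of -0.31 ± 0.54 at 2 h and 0.44 ± 0.51 at 18 h. In DNM3, the hairpins of MIR199A2 and MIR214 lie 35.5 kb and 29.8 kb from the nearest region named for DNM3. Of these loci, the called one was the DNM1 region next to MIR199B. Accessibility does not measure the microRNAs themselves, and no RNA was analysed here.

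DNM3 had 1 called region, chr1:172040445-172040946, 199 kb downstream of its start within the gene. For it the implied level was 422 normalised reads in mock cells, 496 at 2 h and 349 at 18 h, and the authors' deposited table gives a 1.42-fold fall from 2 h to 18 h (-0.51 ± 0.13, adjusted p = 0.00523), with 0.23 ± 0.13 at 2 h (adjusted p = 0.554) and -0.27 ± 0.13 at 18 h against mock (adjusted p = 0.576). The DNM3 start region (signal 426) and a region 2.90 kb into the gene (signal 116) had the lowest unadjusted p at 2 h among the DNM3 regions, 0.0341 and 0.0159. Their deposited changes were -0.25 ± 0.12 and -0.58 ± 0.24, with adjusted p of 0.43 and 0.305, and neither was called.

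DNM2, the dynamin made in most tissues, had the highest mean signal of all member regions, 1877 normalised reads, in the region ending 76 bases before its start. There the deposited log2 fold change was -0.10 ± 0.07 at 2 h, -0.05 ± 0.07 at 18 h and 0.05 ± 0.07 between the times, with 95% intervals of -0.24 to 0.05, -0.19 to 0.10 and -0.09 to 0.20. Of the 29 DNM2 regions, 6 were tested at 2 h against mock, 4 at 18 h against mock and 10 at 18 h against 2 h. None of those tested was called, and none had an unadjusted p under 0.05. In these comparisons 1.28%, 0.121% and 3.48% of all tested regions were called, in either direction. For DNM1, the nearest region lies 754 bases downstream of the start, overlaps the neighbouring gene CIZ1 as well, and had a signal of 277 and a change of -0.24 ± 0.14 at 2 h (95% interval -0.52 to 0.04).

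**Figure D4:**
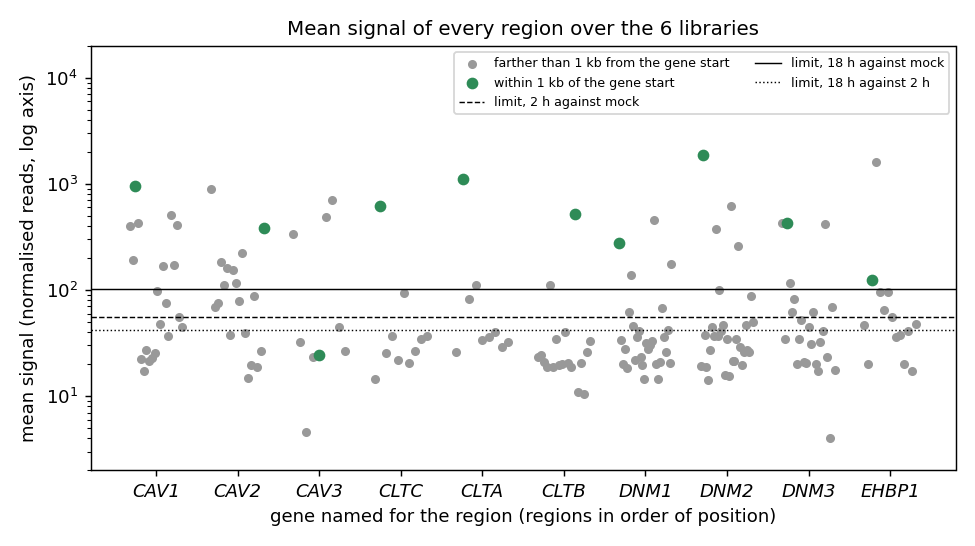
Mean signal over the 6 libraries in normalised reads (vertical log axis) of each of the 178 regions by gene, with regions within 1 kb of the gene start marked. Lines give the lowest signal tested in each comparison; the DNM2 start region is highest at 1877, and the CAV3 start region lies under all lines at 24.4.

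For EHBP1, the region next to the gene start was itself called. The region chr2:62672593-62673094 ends 757 bases upstream of the EHBP1 start as the tables place it, overlaps no annotated gene, and the implied level was 111 normalised reads in mock cells, 169 at 2 h and 89.4 at 18 h. It fell 1.89-fold from 2 h to 18 h in the authors' deposited table (-0.92 ± 0.21, adjusted p = 0.00162). The value at 2 h against mock was 0.60 ± 0.21 with an adjusted p of 0.152, and at 18 h against mock -0.32 ± 0.22 with 0.824. The promoter window printed above for EHBP1 begins past the end of this region, which is why it has no capitals.

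The strongest EHBP1 region is another. The region chr2:62705307-62705808, 31.5 kb downstream, had a mean signal of 1618 normalised reads and ends 505 bases before a second start of EHBP1 that RefSeq annotates at position 62706313. It had a deposited log2 fold change of -0.08 ± 0.07 at 2 h, -0.03 ± 0.07 at 18 h and 0.05 ± 0.07 between the times, with 95% intervals of -0.22 to 0.06, -0.17 to 0.11 and -0.09 to 0.19. The fall between the times was thus called at the weaker region by the upstream start and not at this one. Of the 8 EHBP1 regions tested at 18 h against 2 h, 4 lay above 0 and 4 below.

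The regions nearest the starts were compared as a set because a gene's start is where its name is least in doubt. Of the 10, 9 were tested, and the EHBP1 region at 18 h against 2 h was the only call. Of all tested regions within 1 kb of a gene start, 0.404% were called in that comparison, in either direction. The members' median log2 fold change was -0.10 at 2 h against mock, -0.13 at 18 h against mock and 0.05 at 18 h against 2 h. All tested regions within 1 kb of any gene start had medians of -0.11, -0.06 and 0.05. All 9 tested start regions lay below 0 at 18 h against mock, as did 74.6% of all tested regions within 1 kb. A p that misses the threshold does not show that a start region stayed the same, and the 95% intervals give the changes that remain possible: they are narrow for DNM2, CAV1 and CLTA and wide for CAV3.

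**Figure D5:**
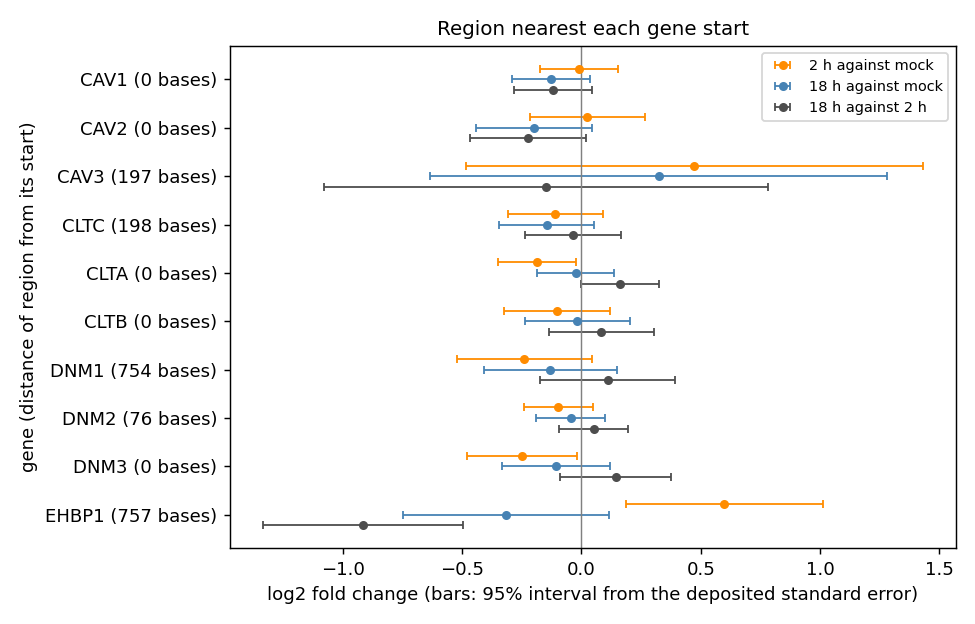
Log2 fold change (horizontal axis) of the region nearest each gene start, with its distance in the label, for the 3 comparisons. Bars are 95% intervals, 1.96 times the deposited SE on each side; the EHBP1 interval at 18 h against 2 h (-1.33 to -0.50) lies wholly below 0.

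The other genes of these routes were counted in 4 lists: 13 other caveolar genes (cavins, EHD ATPases, pacsins, flotillins), 34 clathrin adaptor and coat genes, 15 dynamin partners and 16 genes of EHBP1 and the early endosome, each found in the tables. Together they had 521 tested regions at 2 h against mock, of which 3 were higher and 3 lower, 0.576% each way. At 18 h against mock 0 of 349 were called by DESeq2 in either direction, and at an unadjusted p under 0.05 there were 1 higher and 39 lower. Of all 55341 regions tested there, 0.00542% were called higher and 0.116% lower. At an unadjusted p under 0.05, 315 of those 55341 were higher and 4052 lower, so the lean to lower values was not particular to the lists. For 18 h against 2 h, 4 of 626 were higher (0.639%) and 19 lower (3.04%, in 17 genes). These shares lie near those of all tested regions at 2 h against mock and at 18 h against 2 h.

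At 2 h, the higher regions were named for AAK1, a kinase that acts on the AP2 adaptor (0.80 ± 0.17), for SNX18, a membrane-bending dynamin partner (0.55 ± 0.12), and for SH3GL2, which encodes endophilin A1 (1.12 ± 0.28), as log2 fold changes in the authors' deposited table. The lower ones were named for ARRB1, a beta-arrestin (-0.83 ± 0.16), for HIP1, which links clathrin to actin (-0.55 ± 0.15), and for the cargo adaptor DAB2 (-0.51 ± 0.15). The regions of AAK1, SNX18 and SH3GL2 were each lower at 18 h than at 2 h, with -0.88 ± 0.17, -0.67 ± 0.12 and -1.05 ± 0.28, and that of HIP1 was higher (0.56 ± 0.15), as was a second HIP1 region (0.34 ± 0.10). Both comparisons use the 2 h libraries. The other lower regions of smallest adjusted p at 18 h against 2 h were named for SYNJ2, a phosphoinositide phosphatase (-1.05 ± 0.24), SYNPO (-0.53 ± 0.12), SH3GL3 (-0.61 ± 0.14) and DAB2 (-0.998 ± 0.23, a region other than its 2 h one). The other two higher ones were named for DNAJC6, which encodes the uncoating factor auxilin (0.87 ± 0.21), and for CLINT1 (0.47 ± 0.11). Another DNAJC6 region was lower (-0.48 ± 0.12). The second HIP1 region and this one were named after their values were seen.

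For reading the counts by list, 0.856% of all tested regions were called higher and 0.421% lower at 2 h against mock, and 0.498% higher and 2.98% lower at 18 h against 2 h. At an unadjusted p under 0.05, 3731 of all 86137 tested regions were higher and 4889 lower at 2 h against mock. For 18 h against 2 h, 3722 of 108134 were higher and 8848 lower at such a p. The other caveolar genes had 0 calls of 80 tested regions at 2 h against mock by DESeq2, with 3 higher and 10 lower at an unadjusted p under 0.05, and 3 lower of 94 at 18 h against 2 h. Named after their values were seen, those were 2 regions of EHD4, an ATPase of the membrane-remodelling EHD family (-0.36 ± 0.09 and -0.39 ± 0.11), and 1 of CAVIN2, a caveolar coat gene called SDPR in the tables (-0.72 ± 0.22, adjusted p = 0.0374). The clathrin list had 1 higher and 3 lower of 225 at 2 h against mock, and 4 higher and 7 lower of 275 at 18 h against 2 h. Dynamin partners had 2 higher (1.74%) and 0 lower of 115 at 2 h against mock (6 and 3 at an unadjusted p under 0.05), and 0 higher and 7 lower (5%) of 140 at 18 h against 2 h (0 and 22). The endosome list had 0 calls of 101 at 2 h by DESeq2 (6 higher and 3 lower at an unadjusted p under 0.05), and 2 lower of 117 at 18 h against 2 h, named for APPL2 (-0.82 ± 0.20) and RAB8B (-1.13 ± 0.31), also named after their values were seen. The medians of the 4 lists at 18 h against 2 h lay between -0.04 and 0.02.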

How the data were processed

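ATAC-seq libraries of A375 cells were grouped by their labels into mock, 2 h and 18 h. Per the submitters' processing notes, reads were demultiplexed with bcl2fastq 2.17, the build was hg38 and DESeq2 was used (no version named). The aligner, the peak caller and the handling of Tn5 offsets are not given in the sources used here. In the tables, the deposited mean signal of a region is its normalised read count over the 6 libraries, by the authors. The deposited log2 fold change, the Wald statistic (a score), the p-value and the Benjamini-Hochberg adjusted p come from the authors' fit, per the file headers. No column held the values of 1 library, so no model was fitted anew, and the depth per library is unknown.

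With Python 3.11.15, pandas 2.3.3 and numpy 2.4.6, member regions were selected by gene name, counted once each and set beside all regions. Intervals are 1.96 SE on each side. Region coordinates are given as deposited. Gene spans, promoter windows and microRNAs came from RefSeq GRCh38.p14, whose coordinates are those of hg38; all 10 genes matched. Exons and introns were not analysed here. Centring was tried on simulated data in which every region carried the same shift, so a shift that varies with mean signal was not covered. Named regions were, for each member, the one nearest the start, the one of highest signal, every called one and, where none was called, the tested one of smallest p; of the other genes, up to 6 called per comparison and direction by adjusted p, 1 a gene. The CAV2 regions 64.2 kb and 104 kb upstream, the regions at microRNA genes and the weak regions were named after their values were seen. The members, lists and rules were chosen with earlier results of these data known. The alternatives tried were thresholds of 0.01 and 0.1, centring fold changes on their median over tested regions or within 20 bins of mean signal and recomputing p, no limit on mean signal, regions within 100 kb only, and repeat rows kept.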

Additional observations from a re-analysis of the deposited data

Results flagged for a closer look

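The 18 h against 2 h comparison is also the test of whether the change from mock differs between the times. The 6 member regions that passed it (DESeq2 adjusted p under 0.05 over the whole table) are the 6 lower calls given above. They are not a further result: 72 members were tested, and 2.98% of all tested regions were called lower in that comparison. The difference between the 18 h and the 2 h effect, on the log2 scale, was -1.19 at the CAV2 region 99.1 kb upstream, -1.03 at the CLTB region, -0.92 at the EHBP1 region upstream of its start, -0.51 at the DNM3 region, -0.42 at the CAV3 region shared with OXTR and -0.33 at the CAV2 region 144 kb upstream. In each, the 18 h effect was the lower one. For the CAV2 region 99.1 kb upstream the 2 h effect itself was called; for the other 5 neither effect against mock was. Values per library, which would show whether 1 library carries a difference, are not in the tables used here.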

How the results depend on the processing

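Of the 6 counts of called members, those for higher regions at 18 h (0 in both comparisons) and for lower regions at 18 h against 2 h (6) stayed within 1.5 times under all 7 alternatives. The last was 5 at a threshold of 0.01, 8 at 0.1 and 4 with regions within 100 kb only. Shares of all tested regions called under the alternatives are not given here, so these counts cannot be read against a background. Centring within bins of mean signal moved the higher count at 2 h against mock from 1 to 2, adding the CAV3 region shared with OXTR (0.35), and the lower count from 1 to 0. The lower count at 18 h against mock went from 1 to 0 at a threshold of 0.01, with both centrings and with no limit on mean signal, which adds regions to the adjustment; its adjusted p as deposited was 0.0331. The cause of the shifts with centring was not tested. No direction reversed. No paired analysis was possible because the tables hold no values per library; for the same reason, leaving out a replicate, a replicate block and other count models were not run. The limit on mean signal kept 106 of 178 member regions out of every test.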

Other observations

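Regions too weak to be tested are given here as values only. Within CAV1, 6 neighbouring regions between 11.3 kb and 17.7 kb downstream of the start (chr7:116536269-116543195) had mean signals between 17.2 and 26.9 normalised reads and deposited log2 fold changes at 2 h against mock between 0.47 and 1.38. The highest, 15.7 kb downstream, had 1.38 ± 0.50, with implied levels of 15.2, 39.5 and 26.1 normalised reads in mock, 2 h and 18 h cells. Of the 10 untested CAV1 regions at 2 h, 9 lay above 0 and 4 had an unadjusted p under 0.05, with a median of 0.54. Over all untested regions of that comparison 57.8% lay above 0, 2.22% had such a p and the median was 0.07. With no limit on mean signal none of them was called.

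DNM1 and CLTB each had many weak regions. Of the DNM1 regions left untested, 6 of 22 lay above 0 at 2 h against mock (median -0.20) and 18 of 20 at 18 h against 2 h (median 0.45), where 50.8% of all untested regions lay above 0. Of the CLTB regions left untested, 14 of 16 lay above 0 at 2 h (median 0.32) and 4 of 16 at 18 h against 2 h (median -0.27). These neighbours are not independent, and the comparisons share the 2 h libraries.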
